A study of Mus musculus with 31 samples.

Results

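The nuclear-encoded genes of oxidative phosphorylation were examined in the livers of 31 mice. Members were every gene symbol that begins with Ndufa, Ndufb, Ndufc, Ndufs, Ndufv, Sdha to Sdhd, Uqcr, Cox4 to Cox8 or Atp5. Symbols ending in -ps, which name pseudogenes, were left out, and 7 such symbols matched the prefixes. This gave 97 genes of the 31172 symbols in the deposited tables. By symbol, 38 belonged to complex I, 4 to complex II, 8 to complex III, 18 to complex IV and 17 to complex V, and the other 12 were assembly factors of complexes I and II (Ndufaf and Sdhaf genes). The names do not match the complexes perfectly. Ndufa4, counted with complex I by its symbol, is known as a subunit of complex IV, Cox7a2l takes part in joining complexes III and IV into supercomplexes, and Atp5s and Atp5sl are not subunits of the ATP synthase itself.

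Oxidative phosphorylation takes electrons from NADH at complex I and from succinate at complex II, passes them through complex III to oxygen at complex IV, and uses the proton gradient so built to make ATP at complex V. Complexes I, III, IV and V are mosaics, with a small set of core subunits encoded in mitochondrial DNA and the rest imported from nuclear genes, while every subunit of complex II is nuclear. Hepatocytes are rich in mitochondria, which in the liver also supply energy for urea and glucose synthesis and oxidise fatty acids.

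All mice carried a human coagulation factor IX minigene with a nonsense codon, under the human transthyretin promoter that is active in hepatocytes, in place of their own F9 gene, a strain labelled hFIX-R29X and used as a model of hemophilia B. UPF3B is a factor of nonsense-mediated decay, the pathway that destroys mRNAs with premature stop codons, and the study asked what lowering it in the liver does. The mice fell into 5 groups. DPBS, the buffer, went to 11 mice, 6 of them female. The control oligonucleotide, Control-GalNAc-ASO, went to 4 mice (2 female) in doses of 15 mg/kg and to 6 mice (3 female) in doses of 20 mg/kg. The oligonucleotide against Upf3b, Upf3b-GalNAc-ASO, went to 5 mice (2 female) in doses of 10 mg/kg and to another 5 (2 female) in doses of 20 mg/kg. GalNAc is a sugar taken up by a receptor of hepatocytes, and 6 doses were injected under the skin, 5 days apart by the treatment protocol. The mice were 8 to 14 weeks old, and their livers were collected 48 h after dosing ended. The lower Upf3b dose has no control group of its own dose, so the mice at 10 mg/kg were set against the controls at 15 mg/kg, and those at 20 mg/kg against the controls at 20 mg/kg. These 2 comparisons share no mice.

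Levels were deposited in TPM for each gene symbol, a unit that scales every library to the same total. Most values above 0 (69.9% to 81.6% of them within a mouse) fell on whole multiples of a smallest step, so they act as read shares that are not divided by transcript length, and levels of different genes are therefore not ranked here. Read from that step, the depth was 1020676 to 7391639 reads, and 3627947 in the median mouse. A count of 3 reads was worth 0.406 to 2.94 TPM. Upf3b, the targeted gene, was at 97.3 ± 33.2 TPM (mean ± SD) with DPBS (n = 11), 57.8 ± 22.1 with the control at 15 mg/kg (n = 4) and 111 ± 21.8 with the control at 20 mg/kg (n = 6). It was at 21.5 ± 20.0 TPM with Upf3b-GalNAc-ASO at 10 mg/kg (n = 5) and 7.80 ± 5.82 at 20 mg/kg (n = 5). The treated mice at 10 mg/kg ranged from 3.95 to 53.7 TPM and overlapped the controls at 15 mg/kg, at 27.1 to 78.7 TPM. Those at 20 mg/kg ranged from 2.57 to 16.7 TPM, below the controls at 20 mg/kg, at 85.3 to 135 TPM. Against the matching controls its log2 fold change was -1.73 at the lower dose (adjusted p = 0.211, limma with Benjamini-Hochberg adjustment) and -3.87 at the higher (adjusted p = 1.59e-05, limma). The 10 hepatocyte markers, summed, ranged from 21234 to 46904 TPM over the 31 mice.

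Among the treated mice a pair of libraries stood apart in these genes. The Upf3b-treated mouse at 10 mg/kg labelled replicate 3 had the lowest depth of the series (1020676 reads) and was the lowest of its group in 57 of 86 members (66.3%, against 39.3% of all genes compared in the same way). Replicate 2 at 20 mg/kg was the lowest of its group in 43 of 86 members, against 38.5% of all genes. It also held 199 TPM of the 6 cholangiocyte markers, where the other 4 mice of its group held 16.6 to 25.9. By the same measure, control replicate 4 at 15 mg/kg was the lowest of its group in 40.7% of the members, against 27.0% of all genes. DPBS replicate 6 was the lowest of its group in 34.9%, against 25.2%. Results below are given with and without the 2 treated mice where that matters. Both are low, so leaving them out raises the treated groups.

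Nuclear respiratory genes are known targets of the factor NRF1, whose core site reads CGCATGCG. RefSeq promoter windows, from 250 bases before to 50 bases after a start, were at hand for 78 of the 97 members. The core was found in 11 of the 78 (14.1%), against 4.71% of the 7028 tested genes with a window and 2.07% of all 27025 genes with one. The sequences below (build GRCm38.p6, 5′ to 3′ on the strand of the gene, the core in capitals) show it in 7 of these promoters, at positions upstream of the start, and were chosen because they place the same 8 letters in members of complexes I, IV and V and in an assembly factor.
Atp5g2: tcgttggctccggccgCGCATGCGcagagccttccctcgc
Atp5j: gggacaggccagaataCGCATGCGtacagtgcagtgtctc
Atp5k: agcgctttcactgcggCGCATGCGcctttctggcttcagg
Atp5l: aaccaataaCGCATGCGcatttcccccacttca
Cox6a1: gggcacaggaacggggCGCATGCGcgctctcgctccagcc
Ndufa11: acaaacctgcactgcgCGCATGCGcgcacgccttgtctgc
Ndufaf4: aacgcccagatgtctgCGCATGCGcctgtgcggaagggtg
They lie at chr15:102671065-102671104 (minus strand), chr16:84835100-84835139 (minus), chr5:108434425-108434464 (minus), chr9:44920960-44920992 (minus), chr5:115349096-115349135 (minus), chr17:56717687-56717726 (plus) and chr4:24897955-24897994 (plus), in that order. The first base of the core was 41 bases before the start of Atp5g2, 49 before that of Atp5k, 59 before that of Ndufa11, 112 before that of Ndufaf4, 147 before that of Atp5j, 161 before that of Cox6a1 and 241 before that of Atp5l. The core was also present in the windows of Ndufa8, Ndufaf5, Uqcr11 and Uqcrc1.

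Other letters were searched on both strands of the same windows. The YY1 word AAGATGGC was in 12.8% of the members, 5.79% of the tested genes and 3.19% of all genes, and 7 of its 10 members were complex I genes. The ETS word CCGGAAG, read by GABP, was in 26.9%, 21.5% and 9.93%. The SP1 word GGGCGG was in 47.4%, 68.4% and 38.2%, so it was less frequent in the members than in the tested genes, and TATAAA was in 10.3%, 9.08% and 15.7%. A match is a description of letters and not a bound site.

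In the livers given DPBS the 97 genes together held 14868 ± 1261 TPM (n = 11). By read share, complex I genes made up 31.9 ± 2.05% of that sum, complex V 26.7 ± 2.59%, complex IV 23.9 ± 3.61%, complex III 10.7 ± 0.717%, complex II 4.31 ± 0.553% and the assembly factors 2.37 ± 0.408%. A few members carried much of a complex. Over the 31 mice Cox6c held 31.8 ± 8.43% of the complex IV sum, Uqcrb 27.5 ± 4.15% of complex III, Atp5g3 22.9 ± 4.05% of complex V and Ndufb3 16.8 ± 4.65% of complex I. Complex II was spread more evenly, with Sdha at 31.6 ± 4.53%, Sdhc at 29.7 ± 4.85%, Sdhb at 23.5 ± 5.11% and Sdhd at 15.2%.

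Members varied less from mouse to mouse than the median gene. Across the 11 DPBS mice the SD of log2(TPM + 1) had a median of 0.46 over the 87 members tested and 0.74 over all 8998 genes tested. Complex III had the lowest median (0.33), then complex II (0.40), complex V (0.41), complex IV (0.46) and complex I (0.47), while the assembly factors were at 1.0. The steadiest member was Ndufc1, a small accessory subunit of complex I, at 95.3 to 143 TPM, followed by Ndufb10 at 79.4 to 132 TPM and Ndufab1, the mitochondrial acyl carrier protein, at 128 to 206 TPM. Low genes carry more counting noise, and the part of level in these SDs was not tested.

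Sums of the complexes were compared across mice, as a description. Over the 11 DPBS mice Pearson's r of the log2 sums was 0.74 between complexes I and III, 0.71 between I and V, 0.62 between II and V and 0.62 between III and V. Complex IV stood at -0.20 to 0.05 against the other 4, but at 0.07 to 0.47 by Spearman's rho. In the 20 mice given an oligonucleotide, within groups, complex IV had a Pearson's r of 0.47 to 0.61 and a rho of 0.10 to 0.25 with the others, so its place apart depends on the measure and the mice. The values share a library and its depth, and a TPM sum that takes a larger part of a library lowers all others. Pairs of single members were only weakly related, with a median r of 0.13 within a complex and 0.12 between complexes, against 0.013 over all pairs of tested genes. The strongest pair over all 31 mice, after group means were removed, was Ndufb3 with Sdhc (r = 0.89, Spearman 0.88), which lie in different complexes, and then Cox5a with Cox6a1 (r = 0.83, Spearman 0.80), both of complex IV.

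Of the isoforms known from other tissues, most were near 0 in these livers. Cox8c, a testis isoform, was at 0 in all 31 mice, Cox4i2 and Cox6b2 were at 0 in 30, Cox7b2 in 27, Cox8b in 26 and Ndufa4l2 in 24. Ndufa4l2 reached 13.4 TPM in replicate 2 given Upf3b-GalNAc-ASO at 20 mg/kg, the library with the cholangiocyte markers, and at most 11.7 TPM elsewhere. The muscle isoform Cox6a2 was at 0 in 8 mice, at 6.60 and 12.7 TPM in replicates 1 and 5 of the same group and at 4.90 TPM or less in the other 29. These mice held 112 and 346 TPM of the 8 muscle markers, against 1.19 to 93.6 TPM in the other groups, and the part of muscle RNA in the Cox6a2 values was not tested. Cox7a1, also a muscle isoform, was at 0 in 5 mice and at 12.7 TPM or less in the rest. These 8 isoforms and Atp5s were under the filter on low values (a median of 5 TPM in at least 1 group compared) in every comparison. The other 88 members were tested at least once, and 79 of the 97 were above 0 in every mouse.

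Did Upf3b-GalNAc-ASO change these genes? Log2(TPM + 1) was compared with limma, with sex as a covariate, and called at an adjusted p under 0.05 over all genes tested. At 10 mg/kg against the control at 15 mg/kg, 0 of 87 members were called, where 27 of all 9166 genes (0.295%) were. At an unadjusted p under 0.05, 13 members were lower and 0 higher, while 7.94% of all genes were lower and 7.83% higher. The groups did not overlap for 5 members that were lower and 0 that were higher, while this held for 2.73% of all genes in the lower direction and 2.08% in the higher. The median log2 fold change was -0.34 over the members, with 62 of 87 below 0. Over all genes it was -0.03, with 51.6% below 0. The median SE of a member was 0.36.

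At 20 mg/kg against the control at 20 mg/kg, 0 of 87 members were called by limma, where 236 of all 9376 genes (2.52%) were. At an unadjusted p under 0.05, 16 members were lower and 5 higher, while 11.4% of all genes were lower and 7.32% higher. The groups did not overlap for 2 members in the lower direction and 1 in the higher, against 1.82% and 1.65% of all genes. The median over the members was -0.21, with 58 of 87 below 0, and the median SE was 0.29. Over all genes the median was -0.12, with 56.8% below 0. The shift of all genes is therefore over 0.1 here, and relative to it the members were lower by a small margin. The counts below 0 given for complexes and lists further on stand beside these shares of all genes. Bulk RNA was measured, so fewer hepatocytes and less RNA of these genes per hepatocyte cannot be told apart.

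Replicate 3 at 10 mg/kg and replicate 2 at 20 mg/kg carried much of these medians. Without replicate 3 the median of the members at 10 mg/kg was -0.16. Without replicate 2 the median at 20 mg/kg was -0.12. At the other end, the median was -0.44 without treated replicate 1 at 10 mg/kg and -0.30 without treated replicate 6 at 20 mg/kg. Medians of all genes without these mice are not given, here or further on. The median of all genes over all mice is therefore no background for them. The number of members called was 0 to 2 when each mouse in turn was left out. Without replicate 1 at 10 mg/kg the 2 were Atp5o and Uqcrq, where 431 of all genes were called. Without replicate 4 at 20 mg/kg they were Ndufb3 and Atp5g2, where 265 of all genes were called.

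**Figure D1:**
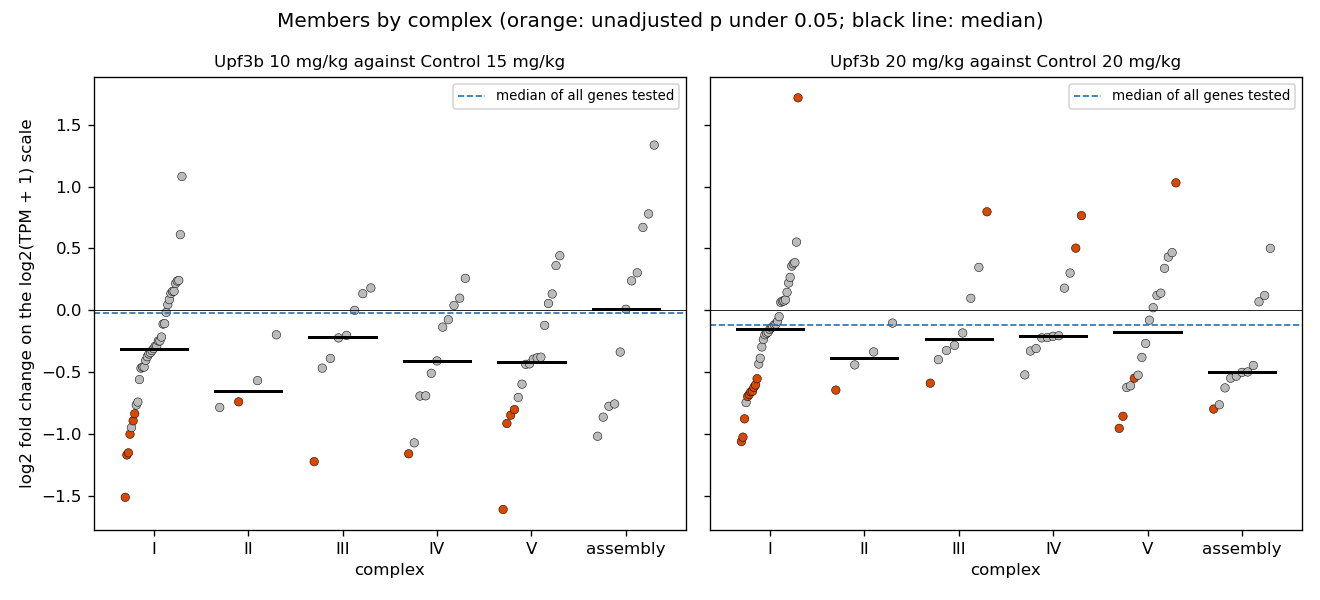
Log2 fold changes on log2(TPM + 1), from limma with sex as a covariate, of the members tested, each point a gene, by complex, in the comparisons of Upf3b-GalNAc-ASO with its control; orange marks an unadjusted p under 0.05, black lines the class medians and the dashed line the median of all genes. Most members of the 5 complexes lie below 0 (57 of 76 at 10 mg/kg and 50 of 76 at 20 mg/kg). Of all genes 51.6% and 56.8% do. No member passed the adjusted p.

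Summed over all members, the control mice at 15 mg/kg held 16011, 16733, 16695 and 15311 TPM and the Upf3b-treated mice at 10 mg/kg 14357, 14276, 8086, 15206 and 14602 TPM. The groups did not overlap, although the highest Upf3b-treated mouse was just under the lowest control, and replicate 3 was far below the rest. The means were 16188 ± 672 (SD, n = 4) and 13305 ± 2940.5 (n = 5), a difference of -17.8%, and of -9.74% without replicate 3. At 20 mg/kg the controls ranged from 15234 to 16829 TPM with a median of 16416, and the treated mice held 14136, 10702, 16381, 14168 and 14504 TPM. Here replicate 4 of the treated mice lay among the controls. The means were 16287 ± 581 (n = 6) and 13978 ± 2052 (n = 5), a difference of -14.2%, and of -9.14% without replicate 2.

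**Figure D2:**
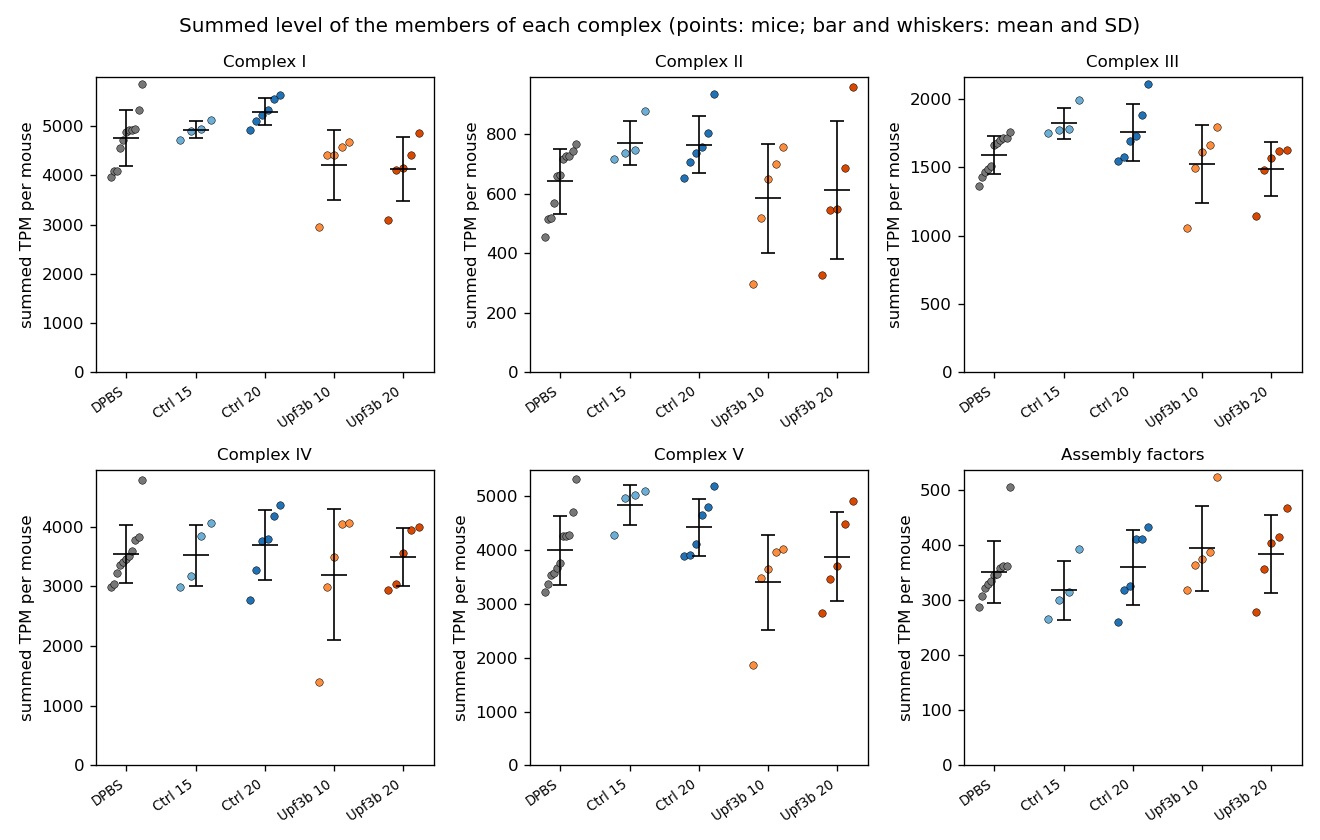
Summed TPM of the members of each complex and of the assembly factors in every mouse, by treatment group, with the group mean and SD. The control means lie above the DPBS mean for complexes I, II, III and V, and the lowest point of most Upf3b-treated groups is replicate 3 at 10 mg/kg or replicate 2 at 20 mg/kg.

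Complex I, the entry point for electrons from NADH, was the complex whose sums kept treated mice and controls apart at both doses. Its 38 genes summed to 4948, 4903, 4710.1 and 5129 TPM in the controls at 15 mg/kg and to 4421, 4579, 2959.7, 4415 and 4675 TPM in the treated mice at 10 mg/kg. At 20 mg/kg the controls held 4914 to 5638 TPM (median 5276) and the treated mice 4105, 3094, 4864, 4148 and 4420.2 TPM. The groups did not overlap at either dose, by narrow gaps. The mean sums differed by -14.5% at 10 mg/kg (-8.12% without replicate 3) and by -22.0% at 20 mg/kg (-17.2% without replicate 2). Of 37 tested genes, 27 had a fold change below 0 at 10 mg/kg and 25 at 20 mg/kg, with medians of -0.31 and -0.16. Taken as the median of its members per mouse, in place of their sum, complex I differed by -0.18 on the log2 scale at 20 mg/kg, against -0.37 for the sum.

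Several single subunits of complex I kept the groups apart. Ndufb8, an accessory subunit of the membrane arm, was at 223, 221, 211 and 277 TPM in the controls at 15 mg/kg and at 183, 152, 76.4, 104 and 163 TPM in the treated mice at 10 mg/kg. Every treated mouse was below every control, and the log2 fold change was -0.84 ± 0.33 (SE; limma adjusted p = 0.237). Ndufa9, which holds the arm that meets the membrane in place, was at 32.0, 37.9, 48.2 and 28.7 TPM in the controls and at 21.5, 28.6, 4.90, 17.8 and 20.1 TPM in the treated mice, again without overlap, though replicate 2 almost met the lowest control (-1.17 ± 0.44, adjusted p = 0.227). The other genes without overlap in this comparison were Ndufb5 (-0.90 ± 0.38) and Ndufc2 (-0.46 ± 0.29) of complex I and Atp5j2 (-0.40 ± 0.27) of complex V. Apart from Ndufa9, these genes were named after their values were seen, as were Ndufa6, Ndufa1, Ndufb10, Cox7b, Atp5j and Atp5k further on.

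Ndufa8 had the lowest fold change of complex I at 10 mg/kg. It was at 84.1, 101, 66.7 and 66.8 TPM in the controls and at 20.5, 39.6, 5.88, 80.8 and 51.8 TPM in the treated mice, so that replicate 4 lay among the controls (-1.51 ± 0.48, limma adjusted p = 0.172, and -1.02 without replicate 3). Ndufa12 had the highest, 1.08 ± 0.55 (limma adjusted p = 0.352). It ranged from 9.91 to 52.8 TPM in the controls and from 14.1 to 86.1 TPM in the treated mice, so the groups overlapped over most of their range. Without the control replicate 4 its value was 1.47.

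Given 20 mg/kg, the lowest values of complex I were those of Ndufa9 (-1.06 ± 0.39, limma adjusted p = 0.143) and Ndufb3 (-1.03 ± 0.30, adjusted p = 0.0683). Ndufb3, a small subunit of the membrane arm, was at 872 to 1590.2 TPM in the controls (median 1077) and at 528, 272, 1034, 444 and 649 TPM in the treated mice. Replicate 4 of the treated mice was the only 1 inside the control range, and without it the fold change was -1.26 (limma adjusted p = 0.0193). In the controls of the other comparison the gene was at 765 to 888 TPM, within the DPBS range of 516 to 1306 TPM. Ndufa6 (-0.61 ± 0.24) and Ndufa1 (-0.55 ± 0.23) did not overlap between the groups. Ndufa6 was at 293 to 356 TPM in the controls and 137 to 264 TPM in the treated mice, and Ndufa1 at 229 to 316 TPM and 144 to 204 TPM.

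Among the core subunits, Ndufs1, which lies in the arm that carries electrons into complex I, had a value of -0.68 ± 0.30 at 20 mg/kg and of 0.13 ± 0.32 at 10 mg/kg. Ndufv1, which binds NADH, stood at 0.06 ± 0.35 and -0.22 ± 0.39 at these doses in turn, and Ndufs7, which carries the last iron-sulfur cluster before ubiquinone, at -0.16 ± 0.34 and -0.46 ± 0.38. These 3 genes were not called by limma at either dose. The highest value of any member at 20 mg/kg was that of Ndufs8, another iron-sulfur subunit, with 1.72 ± 0.66 (limma adjusted p = 0.166). The gene was low, at 0.406 to 14.7 TPM in the controls and 4.88 to 25.8 TPM in 4 treated mice, with replicate 1 just above them. These groups overlapped, and the lowest controls are at the level of a few reads.

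Complex II, succinate dehydrogenase, also part of the citric acid cycle, had all 4 genes below 0 at both doses, with medians of -0.66 at 10 mg/kg and -0.39 at 20 mg/kg. Sdha, the flavoprotein subunit, was at 224, 266, 316 and 251 TPM in the controls at 15 mg/kg and 171, 231, 99.0, 157 and 174 TPM in the treated mice at 10 mg/kg. Only replicate 2 of the treated mice was above the lowest control (-0.74 ± 0.29, limma adjusted p = 0.243). Sdhd, a membrane anchor, stood at -0.79 ± 0.44, Sdhb, the iron-sulfur subunit, at -0.57 ± 0.33 and Sdhc, the other anchor, at -0.20 ± 0.30. Without replicate 3 these became -0.44, -0.34 and -0.02, and Sdhc stood at 0.20 within males. At 20 mg/kg the values were -0.65 ± 0.28 for Sdhd (limma adjusted p = 0.224), -0.44 ± 0.29 for Sdhc, -0.34 ± 0.28 for Sdha and -0.10 ± 0.32 for Sdhb. Without replicate 2 Sdhc was at -0.25, Sdha at -0.20 and Sdhb at 0.14. The complex II sum differed by -24.1% at 10 mg/kg (-14.8% without replicate 3) and by -19.8% at 20 mg/kg (-10.5% without replicate 2), and the groups overlapped in both.

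Complex III, the cytochrome bc1 complex, had 6 of 8 genes below 0 at 10 mg/kg (median -0.21) and 5 of 8 at 20 mg/kg (median -0.23). Of all genes 51.6% and 56.8% were below 0. Uqcrq, a small subunit, was at 279, 318, 325 and 208 TPM in the controls at 15 mg/kg and at 136, 175, 32.3, 221 and 194 TPM in the treated mice. Replicate 4 alone was above the lowest control, and the fold change was -1.23 ± 0.40 (limma adjusted p = 0.183) and -0.75 without replicate 3. The higher dose gave -0.28 ± 0.25. Uqcrfs1, the Rieske iron-sulfur protein, stood at -0.47 ± 0.28 and -0.59 ± 0.25, and Uqcrb at -0.39 ± 0.29 and -0.40 ± 0.26, at the 2 doses in turn. The core proteins had values above 0, Uqcrc1 with 0.18 ± 0.50 and 0.80 ± 0.34 (limma adjusted p = 0.222 at 20 mg/kg) and Uqcrc2 with 0.13 ± 0.37 and 0.10 ± 0.26. Apart from Uqcrc1 at 20 mg/kg these values were smaller than their SE and show no direction. Uqcrc1 was at 12.2 to 23.8 TPM in the controls at 20 mg/kg and at 29.4, 23.0, 42.4, 44.4 and 33.2 TPM in the treated mice, of which replicate 2 alone fell inside the control range. As a median of its members, complex III differed by -0.05 on the log2 scale at 20 mg/kg, against -0.24 for its sum.

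The sum of complex IV, cytochrome c oxidase, differed by -9.11% at 10 mg/kg, by 3.70% without replicate 3, and by -5.47% at 20 mg/kg (-2.35% without replicate 2). These were the smallest differences of sums among the 5 complexes, and the groups overlapped widely. The median of the members per mouse differed by -0.44 on the log2 scale at 10 mg/kg, against -0.22 for the sum. At 20 mg/kg it differed by 0.10, against -0.08 for the sum. This median runs over all 18 genes, of which 11 were tested, so the isoforms near 0 place it among the lower tested genes. It is therefore not ranked against the medians of the other complexes. At 10 mg/kg 8 of 11 tested genes were below 0 (median -0.41), and Cox7a2, the isoform of subunit VIIa that liver uses, had the lowest value, -1.16 ± 0.38 (limma adjusted p = 0.183). It was at 186, 229, 187 and 112 TPM in the controls and at 68.2, 98.0, 26.5, 184 and 119 TPM in the treated mice. Ndufa4, which acts in this complex despite its name, was at 78.8, 82.5, 91.8 and 35.2 TPM and at 10.4, 53.7, 13.7, 93.1 and 55.9 TPM (-1.15 ± 0.42, limma adjusted p = 0.217). Both genes overlapped between the groups, with the control replicate 4 the lowest of its group in each. Cox6c, with the most reads of the complex, stood at -0.08 ± 0.44 and -0.21 ± 0.30.

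Cox8a was the clearest exception to the lower values. It was at 231 to 360.2 TPM in the controls at 20 mg/kg (median 295) and at 684, 453, 434, 443 and 437 TPM in the treated mice. The groups did not overlap, and the fold change was 0.76 ± 0.23 (limma adjusted p = 0.0808). It became 0.87 (limma adjusted p = 0.0443) when every mouse was scaled to the same median. Cox8a was not called when a linear trend with the GC content of transcripts was removed from each mouse. Its groups overlapped in the other comparison, at 249 to 456 TPM in the controls and 199 to 574 TPM in the treated mice (0.10 ± 0.34). DPBS mice reached from 197 to 582 TPM, so that the control mice at 20 mg/kg occupied the lower part of the DPBS range. Cox6b1, a subunit on the outer face, stood at 0.50 ± 0.23 at 20 mg/kg and Cox4i1, among the first nuclear subunits to join, at 0.30 ± 0.27. Cox5a and Cox5b were at -0.52 ± 0.27 and -0.21 ± 0.28 there, and at -1.07 ± 0.53 and -0.69 ± 0.34 at 10 mg/kg.

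In complex V, the ATP synthase, the controls at 15 mg/kg held 5096, 4959, 5013 and 4281 TPM and the treated mice 3479, 4024, 1858, 3963 and 3649.5 TPM. The groups did not overlap, and the means differed by -29.8%, or by -21.9% without replicate 3. On the log2 scale the sum differed by -0.56 and the median of the members per mouse by -0.29. By sums complex V differed most of the 5 complexes in this comparison, but by medians per mouse complexes II and III differed more. At 20 mg/kg the difference was -12.3% (-6.36% without replicate 2) with overlap. Of 16 tested genes 12 were below 0 at 10 mg/kg (median -0.42) and 9 at 20 mg/kg (median -0.18). Beside them 51.6% and 56.8% of all genes were below 0, so the count at 20 mg/kg is near that of all genes.

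Atp5o, which forms the oligomycin sensitivity protein that joins the catalytic head to the stalk, had the lowest fold change of all members at 10 mg/kg. It was at 594, 629, 238 and 578 TPM in the controls and at 156, 332, 82.3, 147 and 150.2 TPM in the treated mice. Control replicate 3 and treated replicate 2 were the mice whose values crossed. The log2 fold change was -1.61 ± 0.41 (limma adjusted p = 0.0908), and -1.32 without replicate 3. The controls themselves were not steady in this gene. Over all 31 mice Atp5o fell in 2 ranges, 21 mice at 82.3 to 372 TPM and 10 mice at 542 to 800.5 TPM, with none between. The upper range held 2 of 11 DPBS mice, 3 of 4 controls at 15 mg/kg, 3 of 6 controls at 20 mg/kg, 0 of 5 treated mice at 10 mg/kg and 2 of 5 at 20 mg/kg. The log2 fold change of the control at 15 mg/kg against DPBS was 1.10 (limma adjusted p = 0.691). Of the stretches of 31 bases in the last 500 of its transcript, 42.8% also occur in another gene, but the partner Gm5436 was at 3.97 TPM or less.

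Subunits of the catalytic head had smaller values. Atp5a1 stood at -0.80 ± 0.34 (-0.47 without replicate 3) and -0.27 ± 0.24 at the 2 doses in turn, Atp5b at -0.39 ± 0.30 and 0.14 ± 0.25, and Atp5c1 at -0.38 ± 0.38 and -0.08 ± 0.25. Atp5k had -0.92 ± 0.33 and -0.61 ± 0.35. Atp5j, a subunit of the stalk, had -0.71 ± 0.34 and -0.96 ± 0.31 (limma adjusted p = 0.0928 at 20 mg/kg).

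**Figure D3:**
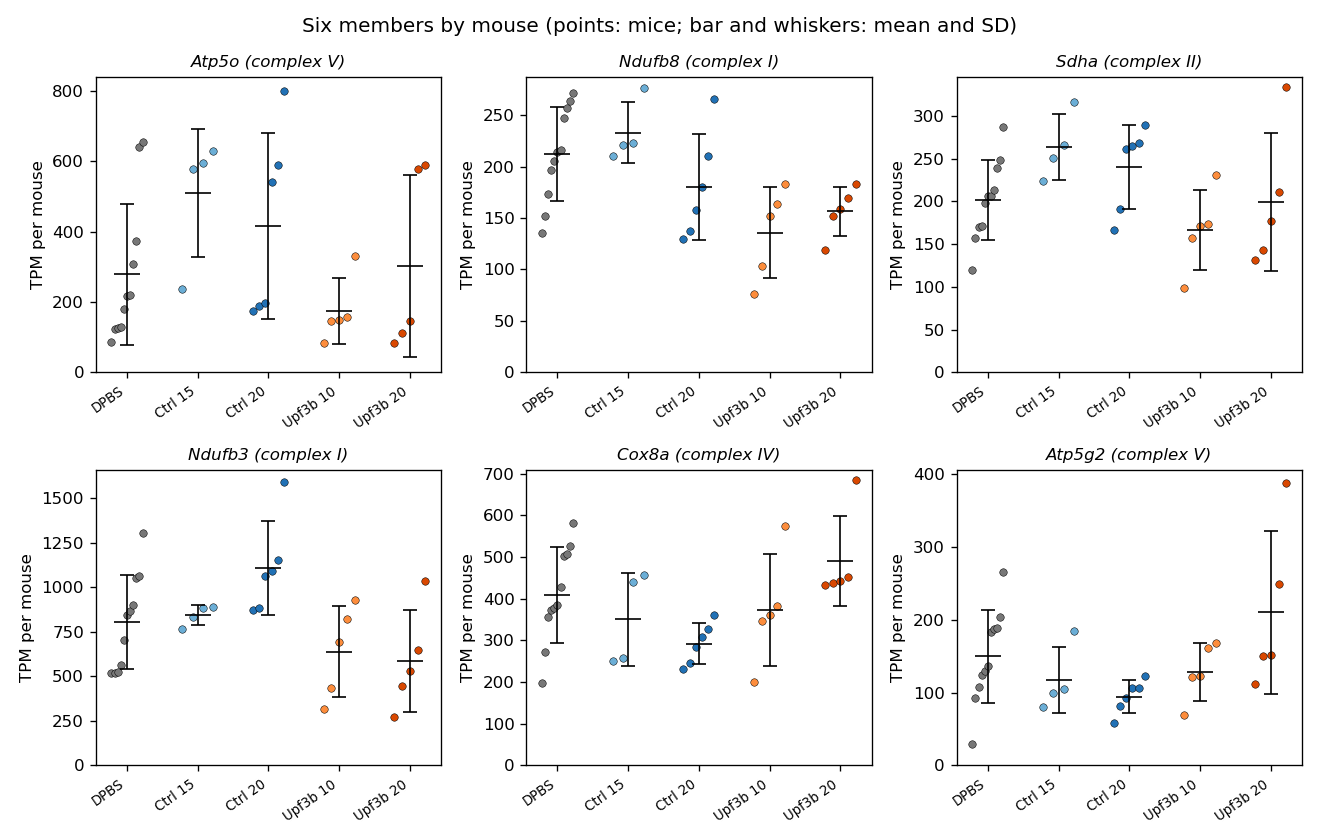
TPM of 6 members in every mouse, by treatment group, with the group mean and SD. Atp5o, Ndufb8 and Sdha show lower points at 10 mg/kg than in the control at 15 mg/kg, Ndufb3 lower points at 20 mg/kg than in the control at 20 mg/kg, and Cox8a and Atp5g2 higher ones.

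The rotor ring of the ATP synthase is built from subunit c, which mice make from Atp5g1, Atp5g2 and Atp5g3, genes that differ in the peptide that is cut off on import. The shares of these genes are given here without a test. Atp5g3 was at 931 to 1256 TPM in the controls at 20 mg/kg (median 1129) and at 654, 770.1, 1018, 611 and 773 TPM in the treated mice (-0.55 ± 0.23, limma adjusted p = 0.197). Atp5g2 was at 57.8 to 123 TPM in these controls (median 99.1) and at 249, 152, 111, 388 and 150.4 TPM in the treated mice (1.03 ± 0.32, limma adjusted p = 0.0840). Replicate 4 alone kept Atp5g2 from separating the groups. As a share of the 3 genes, Atp5g3 made up 83.4 ± 5.08% in the controls (77.4% to 89.2%, n = 6) and 67.4 ± 9.63% in the treated mice (53.6% to 75.7%, n = 5), without overlap. In the other comparison the shares were 84.4 ± 3.60% (n = 4) and 71.3 ± 10.4% (n = 5), and the ranges of 79.9% to 87.3% and 57.4% to 82.3% overlapped. DPBS mice had 74.0 ± 9.29% (58.5% to 88.1%, n = 11), a range that takes in most mice of every group. The GC content of the transcript is 63.3% for Atp5g2, 50.5% for Atp5g3 and 46.8% for Atp5g1. Over 86 members the Spearman correlation of fold change with GC content was 0.42 at 20 mg/kg and 0.04 at 10 mg/kg. Stretches of 31 bases near the transcript end also occur in another gene for Atp5g2 (30.2%) and Atp5g1 (27.0%), but not for Atp5g3. The part of base composition and shared sequence in these shares was not tested.

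**Figure D4:**
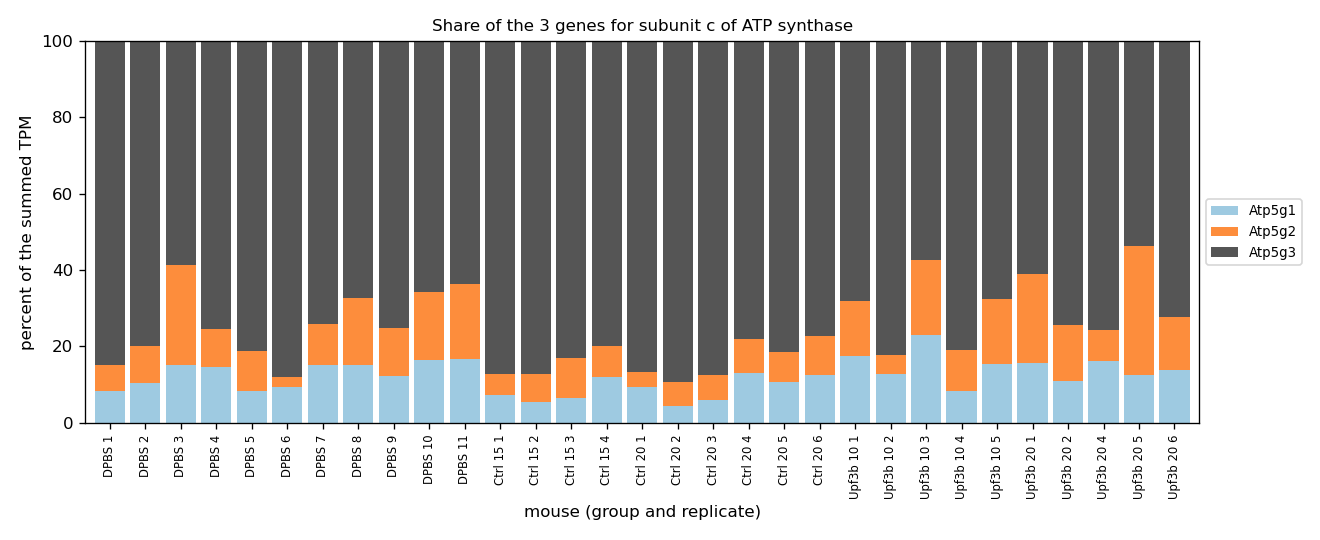
Stacked bars, 1 per mouse and ordered by treatment group, of the share of Atp5g1, Atp5g2 and Atp5g3 in their summed TPM, in percent. The Atp5g3 share is above 77% in every control mouse at 20 mg/kg and under 76% in every Upf3b-treated mouse at that dose, while DPBS mice span 58.5% to 88.1%.

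The assembly factors, which help build complexes I and II but do not stay in them, had no common direction at 10 mg/kg. The median was 0.01, with 5 of 11 below 0. The highest value of any member was that of Ndufaf2, a chaperone of complex I, with 1.34 ± 0.66 (limma adjusted p = 0.339). It was at 22.3, 10.0, 29.8 and 14.0 TPM in the controls and at 20.1, 74.9, 229, 15.8 and 28.6 TPM in the treated mice. The value of 229 came from replicate 3, and without it the fold change was 0.62. Against the controls at 20 mg/kg 8 of 11 were below 0, with a median of -0.50 beside a median SE of 0.56. Ndufaf4 had the lowest value, -0.80 ± 0.32 (limma adjusted p = 0.183), and Ndufaf8 the highest, 0.50 ± 0.27.

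The 2 doses were compared directly as a difference of the Upf3b effects, each against its own control. By limma 0 of 87 members were called, and 0 of all 9797 genes (0%). At an unadjusted p under 0.05 there were 3 members, all with a more negative value at 20 mg/kg, beside 8.16% of all genes. They were Ndufaf2 (-1.78), Atp5sl (-1.21) and Ndufaf4 (-1.04). The highest differences were 1.79 for Ndufs8 and 1.23 for Ndufs3. The median over the members was 0.12 and over all genes -0.07. The doses are thus not shown to differ for any of these genes, and with a median SE of 0.46 per member only large differences could have been seen.

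Set against DPBS the treated mice lay closer. At 10 mg/kg 0 of 87 members were called by limma, where 0.376% of all genes were, and 3 members passed an unadjusted p under 0.05 (8.27% of all genes). These were Uqcrq (-0.86), Ndufb8 (-0.68) and Ndufb10 (-0.59). The median of the members was -0.22, against 0.03 over all genes, but was -0.0008 without replicate 3, -0.55 within females and 0.04 within males. Ndufa8 stood at -0.80, or 0.36 within males. The assembly factors Ndufaf2 (0.91) and Ndufaf3 (0.85) were the highest. In the mice given 20 mg/kg 0 of 86 members were called by limma, where 1.13% of all genes were, and 4 passed an unadjusted p under 0.05 (11.9% of all genes). These were Sdhaf3 (-1.19), Atp5j (-0.62), Ndufaf4 (-0.60) and Ndufb10 (-0.52). Sdhaf3 and Ndufaf6 (-0.84) were the lowest, and Ndufs8 (1.01) and Ndufs3 (0.65) the highest. The median was -0.08, against 0.05 over all genes, and 0.03 without replicate 2.

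The control oligonucleotide groups were higher than DPBS in most members, but also in most genes. Of all genes tested, 5006 of 8971 were above 0 at 15 mg/kg and 5865 of 9140 at 20 mg/kg. At 15 mg/kg 59 of 86 had a fold change above 0 (median 0.16, all genes 0.07), 0 were called by limma, where 0% of all genes were, and 4 passed an unadjusted p under 0.05 (7.18% of all genes). All 4 were above 0, namely Atp5o (1.10), Ndufa4 (0.87), Atp5g3 (0.54) and Atp5a1 (0.52). Ndufa12 (-0.62, or 0.09 within females) and Ndufa3 (-0.60) were the lowest. In the controls at 20 mg/kg 56 of 87 were above 0 (median 0.13, all genes 0.15), 0 were called by limma, where 0% of all genes were, and 11 passed an unadjusted p under 0.05 (9.9% of all genes), 9 above 0 and 2 below. The highest were Sdhaf2 (0.96), Ndufaf3 (0.91) and Sdhd (0.83, limma adjusted p = 0.381), and the lowest Ndufs8 (-0.70) and Ndufb4 (-0.63). Relative to all genes the members were thus not higher at this dose.

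These comparisons share the control mice with those above, so their values are set side by side rather than counted together. Ndufb3 was at 0.50 for the control at 20 mg/kg against DPBS, -1.03 for Upf3b against that control, and -0.49 for Upf3b against DPBS. For Ndufs1 the 3 values were 0.58, -0.68 and -0.10, and for Sdhd 0.83, -0.65 and 0.20. Cox8a, in the other direction, had -0.45, 0.76 and 0.27. At the lower doses Atp5o had 1.10, -1.61 and -0.52 and Atp5g3 0.54, -0.85 and -0.29. These genes are given as examples chosen after their values were seen. Of the 20 core subunits (4 per complex), 17 were below 0 at 10 mg/kg and 15 at 20 mg/kg against the controls, 15 and 11 against DPBS, and 3 in each control group against DPBS. Of all genes 51.6% and 56.8% were below 0 against the controls, and 47.3% and 46.4% against DPBS. In the control groups at 15 and 20 mg/kg against DPBS the shares were 44.2% and 35.8%. Groups are shared among these comparisons, so the counts are not independent.

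Sex was compared within the DPBS mice. By limma 0 of 87 members were called between 5 males and 6 females, where 1.41% of all genes were, and 2 passed an unadjusted p under 0.05 (9.86% of all genes). Uqcrc1 was higher in males by 1.20 on the log2 scale (limma adjusted p = 0.453) and Cox7b lower, at -0.63. The other extremes were Atp5g2 (0.66), Sdhaf3 (-0.94) and Ndufaf5 (-0.93). The median over the members was 0.03, and 0.03 over all genes.

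The 13 subunits that mitochondrial DNA encodes did not follow the nuclear members. They summed to 56693 ± 14187 TPM with DPBS (n = 11), 54225 ± 3143 with the control at 15 mg/kg (n = 4) and 75702 ± 20174 with Upf3b-GalNAc-ASO at 10 mg/kg (n = 5), with 56284 ± 8083 (n = 6) and 55408 ± 13947 (n = 5) in the control and treated mice at 20 mg/kg. At 10 mg/kg 9 of the 13 were above 0 against the control (median 0.26) and 12 of 13 against DPBS (median 0.35), and 0 were called by limma in any comparison, with 2 and 5 at an unadjusted p under 0.05. Of all genes, 4440 of 9166 were above 0 against the control and 4761 of 9032 against DPBS. In these comparisons 718 and 348 of all genes were higher at an unadjusted p under 0.05. The ratio of this sum to that of the nuclear members was 3.86 ± 1.13 with DPBS, 3.36 ± 0.285 and 3.46 ± 0.542 in the controls at 15 and 20 mg/kg, and 4.15 ± 1.75 in the treated mice at 20 mg/kg. In the treated mice at 10 mg/kg it was 3.40, 5.08, 12.3, 4.38 and 6.24. The 12.3 belongs to replicate 3, with 99556 TPM from mitochondrial DNA beside 8086 TPM from the nuclear members. Replicate 2 at 20 mg/kg had the highest ratio of its group, 7.11. The share of RNA from mitochondrial DNA was thus high beside the low nuclear values in these 2 mice. It was also high in mice without a low nuclear sum. Replicate 5 at 10 mg/kg had 91167 TPM beside 14602 TPM from the nuclear members, and DPBS replicate 6 had 88314 beside 14133 TPM. The part of this RNA in the low nuclear values was not tested.

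**Figure D5:**
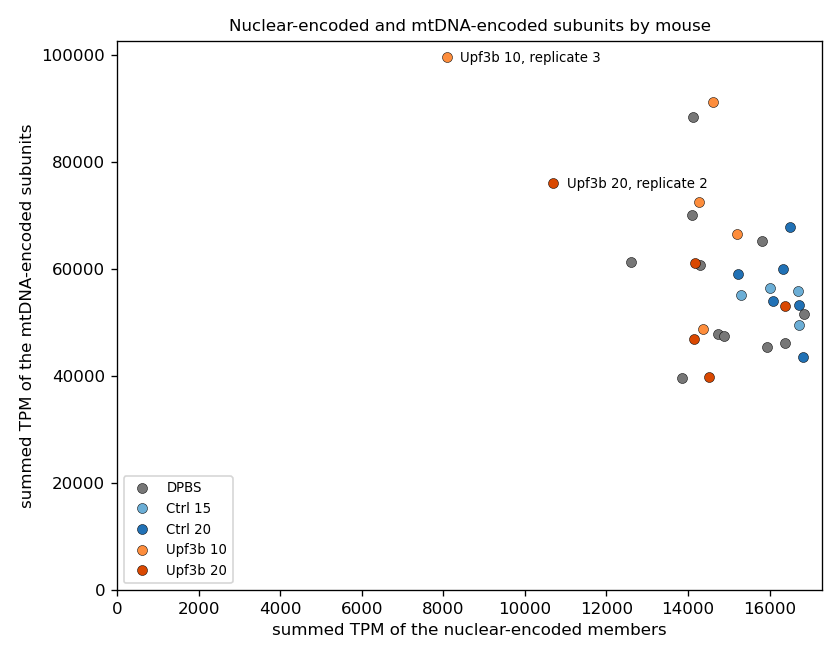
Summed TPM of the 13 subunits from mitochondrial DNA (vertical axis) against summed TPM of the nuclear members (horizontal axis), each point a mouse, coloured by treatment group. Replicate 3 at 10 mg/kg (8086 TPM nuclear, 99556 TPM from mitochondrial DNA) and replicate 2 at 20 mg/kg (10702 and 76109 TPM) lie farthest to the left of the 31 mice.

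Genes next to the members in the same pathway were read from lists. Of 8 tested electron carriers and subunits that the symbols miss, such as cytochrome c1 and cytochrome c, 5 were below 0 at 10 mg/kg (median -0.32) and 7 at 20 mg/kg (median -0.33), against the controls. Of 13 citric acid cycle enzymes 11 and 9 were below 0 (medians -0.31 and -0.35). Of 31 tested assembly factors with other symbols 17 and 16 were below 0 (medians -0.12 and -0.03). Of 13 tested regulators of mitochondrial biogenesis 8 and 10 were below 0 (medians -0.03 and -0.38), among them at 20 mg/kg Ppargc1a, a coactivator of these genes, at -1.07 (limma adjusted p = 0.240) and Tfam, which packs and transcribes mitochondrial DNA, at -0.84 (limma adjusted p = 0.213). At 10 mg/kg Ppargc1a stood at 0.47 (limma adjusted p = 0.689) and Tfam at -0.03 (limma adjusted p = 0.973). No gene of these 4 lists was called by limma in either comparison. At an unadjusted p under 0.05, in the order given here, 2, 1, 2 and 1 genes were lower at 10 mg/kg, and 1 of the assembly factors was higher, beside the 7.94% and 7.83% of all genes given above. At 20 mg/kg 3, 2, 4 and 2 were lower and 4 of the assembly factors were higher, beside 11.4% and 7.32%. The NRF1 core in the promoter made no visible difference, with a median of -0.33 over 10 members that held it and -0.34 over 63 that did not at 10 mg/kg, and of -0.20 and -0.18 at 20 mg/kg.

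Cell type markers moved with these genes in part. Of 10 hepatocyte markers 9 were below 0 at 10 mg/kg (median -0.39) and 8 at 20 mg/kg (median -0.23), none called by limma, with 2 and 3 at an unadjusted p under 0.05. Their sums were 31252 to 44425 TPM and 21234 to 39358 TPM in the controls at 15 mg/kg and the treated mice at 10 mg/kg, and 23352 to 37282 TPM and 21740 to 38789 TPM at 20 mg/kg. No hepatocyte marker was at 0 in any group. The 8 endothelial markers summed to 732 to 1787 TPM in the controls and 1581 to 2405 TPM in the treated mice at 20 mg/kg, and Pecam1, an endothelial adhesion protein, rose by 1.27 (limma adjusted p = 0.0201). Yet 6 of the 8 had a fold change below 0 there, with a median of -0.32, so the sum and most of its genes differ in direction. Muscle markers summed to 3.79 to 25.6 TPM and 12.7 to 346 TPM in these groups. Kupffer cell markers had overlapping sums (275 to 861 and 343 to 736 TPM), as did the stellate, cholangiocyte, lymphocyte and erythroid lists. The 9 listed stellate and fibroblast markers summed to 127 to 207 and 95.3 to 182 TPM, the 6 cholangiocyte markers to 13.3 to 34.4 and 16.6 to 199 TPM, the 9 lymphocyte and neutrophil markers to 1.65 to 87.5 and 0.460 to 15.0 TPM, and the 5 erythroid markers to 839 to 5348 and 732 to 2008 TPM. At the lower dose the cholangiocyte sums did not overlap, at 6.95 to 20.6 TPM in the controls and 21.8 to 27.4 TPM in the treated mice, with Cftr at 0 in both groups. The part of cell composition in the values of the members was not tested.

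Base composition moved with the comparison at 20 mg/kg. Over genes, the Spearman correlation of log2 fold change with the GC content of the transcript was 0.31 over 9206 genes and 0.42 over 86 members, and every treated mouse was on the same side, with a correlation of 0.14 to 0.21 between its values and GC, against -0.17 to -0.0068 in the controls. Per mouse this correlation also spread within other groups. It ran from -0.14 to 0.12 in DPBS mice, from -0.07 to 0.06 in the controls at 15 mg/kg and from -0.23 to 0.20 in the treated mice at 10 mg/kg. At 10 mg/kg the correlation of fold change with GC was -0.03 over all genes and 0.04 over the members. With a linear GC trend removed from each mouse, 1 member was called at 20 mg/kg, Atp5j (-1.18, limma adjusted p = 0.0486), beside 185 of all genes.

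Some members share sequence with near-identical copies, and their reads could have been split between them. Atp5l was at 170.3 ± 40.0 TPM in the controls (n = 6) and 229 ± 91.8 TPM in the treated mice (n = 5) at 20 mg/kg, whereas its processed copy Atp5l2-ps was at 709.8 ± 262 and 279.8 ± 178 TPM. Together they held 880.2 ± 255 and 509 ± 117 TPM, so the direction for Atp5l turned when the copy was counted with it. In the other comparison the sums were 1053 ± 243 and 554 ± 241 TPM, beside 206 ± 27.8 and 155 ± 39.0 TPM for Atp5l alone. Cox7c alone was at 232 ± 21.8 and 292 ± 87.8 TPM at 10 mg/kg and at 359.7 ± 166 and 256 ± 47.3 TPM at 20 mg/kg. With its copy Gm10012 the sums were 517 ± 56.6 and 479 ± 141 TPM at 10 mg/kg and 545 ± 129.6 and 479 ± 53.0 TPM at 20 mg/kg, so its direction turned at 10 mg/kg. In the last 500 bases of the transcript, 76.2% of the stretches of 31 bases of Atp5l, 68.9% of Atp5h, 67.4% of Ndufs3, 58.3% of Uqcrb, 49.8% of Ndufs5 and 43.2% of Cox7c also occur in another gene, so the values of these members are uncertain to that extent.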

How the data were processed

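Liver RNA of 31 mice was measured. The labels name a QuantSeq 3′ kit and the study's methods a TruSeq kit. Per the submitters' processing notes, the authors used bcl2fastq 2.17.1.14, Salmon 0.7.2 and GRCm38.p4, and deposited 1 TPM value per gene symbol and mouse. Of 31198 rows, 26 whose symbols had become dates were left out. Values were whole reads within 0.02 reads for only part of the genes, so no count test was used.

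TPM was analysed as log2(TPM + 1) with limma 3.58.1 in R 4.3.3 (lmFit, then eBayes with trend and robust), within the mice of the groups compared and with sex as a covariate. Genes needed a median of 5 TPM in at least 1 group, and p-values were adjusted by Benjamini-Hochberg over all genes tested, with a threshold of 0.05. Sums, ranges and correlations used pandas 2.3.3, numpy 2.4.6 and scipy 1.17.1. The code was tested on simulated data. Fold changes on this scale understate changes of low genes. Mice are separate samples by their labels, and p-values measure the spread between them.

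The genes named are 20 core subunits, isoform sets, the 2 highest and 2 lowest members of each comparison, assembly factors and any called member; others are marked as chosen after their values were seen. The members and lists were chosen with earlier results of these data known. Groups share replicate numbers, but same-numbered mice did not deviate together (r = -0.39 to 0.14), so no pairing was used. The labels give both 5 days and a week between doses. Mice given an oligonucleotide against Upf1 were not analysed here. Promoters came from RefSeq (GRCm38.p6). The values of 1 member are not reported here by name, though counts and sums include it.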

Additional observations from a re-analysis of the deposited data

Results flagged for a closer look

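Of 108 sums and genes tested within groups of 4 to 10 mice, 10 had a highest or lowest mouse far from the others, where chance alone gives about 1 in 20. Replicate 3 given Upf3b-GalNAc-ASO at 10 mg/kg was low in the summed TPM of all members (8086, the next mouse at 14276), of complex I (2959.7, next 4415) and of complex V (1858, next 3479).

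Among the controls at 15 mg/kg, replicate 4 was low in the complex V sum (4281 TPM, next 4959) and in Cox5a (164 TPM, next 633), and high in Uqcrc1 (64.9 TPM, next 24.3) and Uqcrc2 (219 TPM, next 102). Replicate 3 of that group was high in the complex III sum (1989 TPM, next 1779) and low in Atp5o (238 TPM, next 578). Among the controls at 20 mg/kg, replicate 4 was high in Ndufv1 (58.1 TPM, next 36.2).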

How the results depend on the processing

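No pairing of mice was used. With the replicate block 1 member was called at 10 mg/kg against the control at 15 mg/kg (Atp5o, -1.58, limma adjusted p = 0.0274), beside 95 of all genes. The block moved no other count of members. Against the control at 20 mg/kg, scaling each mouse to the same median called 1 member (Cox8a), beside 281 of all genes. Removing a linear GC trend called 1 (Atp5j), beside 185 of all genes. Leaving out each mouse in turn gave 0 to 2 members called in either comparison, and for Sdhb at 20 mg/kg a log2 fold change of -0.28 to 0.14, the latter without replicate 2. Within males, 2 members were called in the control at 15 mg/kg against DPBS (Atp5f1 and Cox5a), beside 161 of all genes. The median at 10 mg/kg against DPBS was 0.044 within males and -0.55 within females. Sdhc against the control (0.20) and Ndufa8 against DPBS (0.36) changed sign within males, as did Ndufa12 in the control at 15 mg/kg within females (0.087). Scaled to the same median, the members' median in the control at 20 mg/kg against DPBS was -0.0073. As a median of members, complex I differed by -0.18 and complex III by -0.049 at 20 mg/kg. The causes were not tested. Of the other alternatives, apart from leaving out mice, 61 counts of members called stayed at 0. In 62 the median differed from the reported value by less than the SD, within groups, of the members' mean log2 level per mouse. The GC and within-sex alternatives were chosen after seeing the data, and leaving out mice was not run for the difference between doses. Depth limits the lowest members, where 3 reads are worth up to 2.94 TPM.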
